A study of Rattus norvegicus with 9 samples.

Results

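The miR-23a/27a/24-2 and miR-23b/27b/24-1 clusters are a pair of microRNA (miRNA) loci that each give rise to a miR-23, a miR-27 and a miR-24. Their mature products were followed in small RNA libraries of rat (Rattus norvegicus) striatum. Members were taken by name from the deposited count files, and 7 of the 1759 entries matched. With rno- for rat, these were rno-miR-23a-3p, rno-miR-23b-3p, rno-miR-24-3p, rno-miR-24-1-5p, rno-miR-24-2-5p, rno-miR-27a-3p and rno-miR-27b-3p. No measured value entered the match by name, though the members were chosen with earlier results of these data known. The MMT group received methylcyclopentadienyl manganese tricarbonyl (MMT), an organic manganese fuel additive, in corn oil by the intragastric route at 4 mg/kg, which holds about 1 mg of manganese per kg. The MnCl2 group, called a positive control by the submitters, received manganese chloride tetrahydrate at 200 mg/kg in physiological saline, 10 ml/kg. The control group received corn oil alone, 1 ml/kg. Dosing was once a day on 6 days a week for 8 weeks. The rats were 8 weeks old at the start, and the series held 18 of them, 9 males and 9 females, with 3 per group and sex. Each group has 3 libraries, 9 in all. The labels give neither the strain nor which animal, sex or pool a library was made from. The p-values therefore reflect variation among libraries only, and part of that variation may be technical. Because MnCl2 came in saline and the controls received oil, vehicle and manganese salt cannot be told apart in that comparison.

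A miRNA is cut from a hairpin in its transcript, and 1 arm of the hairpin, the guide, is usually loaded into Argonaute while the other arm, the passenger, is mostly degraded. The loaded strand pairs with messenger RNAs through its seed, bases 2 to 8, and lowers their stability and translation. The miRNAs of one cluster are carried by 1 primary transcript. In mouse, these clusters are known from endothelium, where miR-23 and miR-27 support vessel growth, and miR-23 has also been described in astrocytes and in maturing oligodendrocytes. A bulk striatal library mixes these cells with neurons, so fewer cells of a type and less RNA per cell cannot be told apart.

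The mature sequences are shown because the entries are so alike that single bases decide which one receives a read. All 7 members matched a mature sequence in RefSeq (GRCr8 assembly), and each was the same as the sequence in the deposited files. Capitals mark the seed, and all are written 5′ to 3′.
miR-23a-3p: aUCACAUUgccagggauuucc
miR-23b-3p: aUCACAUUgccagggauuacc
miR-27a-3p: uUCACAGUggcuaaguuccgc
miR-27b-3p: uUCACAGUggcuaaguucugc
miR-24-3p: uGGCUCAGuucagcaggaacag
miR-24-1-5p: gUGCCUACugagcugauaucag
miR-24-2-5p: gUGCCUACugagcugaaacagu

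The 7 members carried 4 seeds, and no other miRNA entry in the files had any of them. Counted from 1 at the 5′ end of the a form, miR-23a-3p and miR-23b-3p differed by U19A, and miR-27a-3p and miR-27b-3p by C19U, so 20 of 21 bases were shared in each pair. A read that ends before base 19 fits both forms, and how the authors placed such reads is not given in the sources used here. The a and b levels below, and their sums if such reads were dropped or counted for both, are uncertain to that extent. The miR-24-5p strands differed at 5 of 22 bases, all beyond the seed.

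On GRCr8, the hairpins of miR-23a, miR-27a and miR-24-2 lay on the minus strand of chromosome 19 within 389 bases, at chr19:40859455-40859843, and no protein-coding gene spanned them. Those of miR-23b, miR-27b and miR-24-1 lay on the minus strand at chr17:1818669-1819482, within 814 bases inside the boundaries of Aopep, an aminopeptidase gene. The miR-24 hairpins are printed with both mature arms in capitals, since they show why one arm could be assigned to a cluster and the other could not.
Mir24-1, chr17:1818669-1818736, minus strand: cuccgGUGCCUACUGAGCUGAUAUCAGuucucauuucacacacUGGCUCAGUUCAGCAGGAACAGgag
Mir24-2, chr19:40859455-40859562, minus strand: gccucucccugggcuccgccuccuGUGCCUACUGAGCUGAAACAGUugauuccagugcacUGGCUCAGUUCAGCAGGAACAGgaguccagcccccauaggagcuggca

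The second capital stretch of each hairpin, miR-24-3p, is identical in both, and its count pools the loci. The first, miR-24-1-5p or miR-24-2-5p, is particular to its hairpin. The opposite strand at Mir24-1 also holds a miRNA hairpin, Mir3074, whose product miR-3074 is complementary to miR-24-1-5p over 20 bases and to miR-24-2-5p over 16. The use of strand in counting is not given, so reads of miR-3074 and of the miR-24-5p strands may not be fully separated. Over the 9 libraries miR-3074 had 54 counts, miR-24-1-5p 69 and miR-24-2-5p 172.

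Total counts per library ran from 583045 in control library 3 to 2012769 in control library 1. Of 1759 entries, 1113 passed a low-count filter, 615 of them miRNAs. Neuronal miRNAs were abundant, as the label striatum implies: miR-128-3p stood at 16373 to 22415 CPM and miR-218a-5p at 7698 to 11584 CPM over the 9 libraries, with no neuronal marker at 0 in any group. CPM here are read counts divided by a library total that was adjusted by the trimmed mean of M-values (TMM). The 7 members held 2.12%, 2.15% and 1.97% of miRNA counts in MMT libraries 1 to 3, 2.18%, 2.09% and 1.95% in MnCl2 libraries and 1.99%, 1.88% and 1.84% in control libraries. The widest 95% Wilson interval of these shares, in control library 3, was 1.79% to 1.89%, and such intervals cover counting error only.

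The guide strand of miR-27b dominated the clusters. Over the 9 libraries it held 72.4% of all member counts and ranked 22nd among 764 miRNA entries, at 8933 ± 1359 CPM (mean ± SD). In mouse, miR-27 represses Pparg, the master regulator of fat cell formation, and the semaphorin Sema6a. MiR-27b-3p stood at 10049, 8253 and 9908 CPM in MMT libraries 1 to 3, at 9803, 7825 and 9785 CPM in MnCl2 libraries and at 10418, 7897 and 6456 CPM in control libraries. Both the highest and the lowest library were controls, so all groups overlapped.

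MiR-24-3p, the strand that both clusters make, was next, at rank 59. In human cells miR-24 restrains cell cycle genes such as E2F2 and MYC. Its level was 1673, 1385 and 1867 CPM in MMT libraries, 2029, 1532 and 1504 CPM in MnCl2 libraries and 1854, 1349 and 1254 CPM in control libraries. All groups overlapped. On average miR-27b-3p was 5.57-fold above miR-24-3p, and the ranges over the 9 libraries did not overlap.

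MiR-27a-3p, which differs from miR-27b-3p at 1 base, ranked 81. It had 830.3, 672 and 963 CPM in MMT libraries, 1577, 701 and 782 CPM in MnCl2 libraries and 704, 855 and 704 CPM in control libraries. MnCl2 library 1 stood above all 8 others, while MnCl2 library 3 lay inside the range of the controls and MnCl2 library 2 just below it. MiR-24-3p was above miR-27a-3p in 9 of 9 libraries, with ranges that overlapped between libraries.

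The miR-23 guides were the lowest of the guide strands. MiR-23b-3p, at rank 95, had 786, 534 and 729.7 CPM in MMT libraries, 659, 622 and 584 CPM in MnCl2 libraries and 832, 517 and 511 CPM in control libraries. MiR-23a-3p, at rank 129, had 321, 295 and 384 CPM in MMT libraries, 424, 286 and 244 CPM in MnCl2 libraries and 292, 285 and 254 CPM in control libraries. Every MMT library exceeded every control library in miR-23a-3p, by as little as 295 against 292 CPM, and the MnCl2 libraries spanned both groups. MiR-27a-3p and miR-23b-3p are neighbours in level whose ranges overlapped, with miR-27a-3p higher in 8 of 9 libraries. MiR-23b-3p was 2.07-fold above miR-23a-3p with no overlap.

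**Figure D1:**
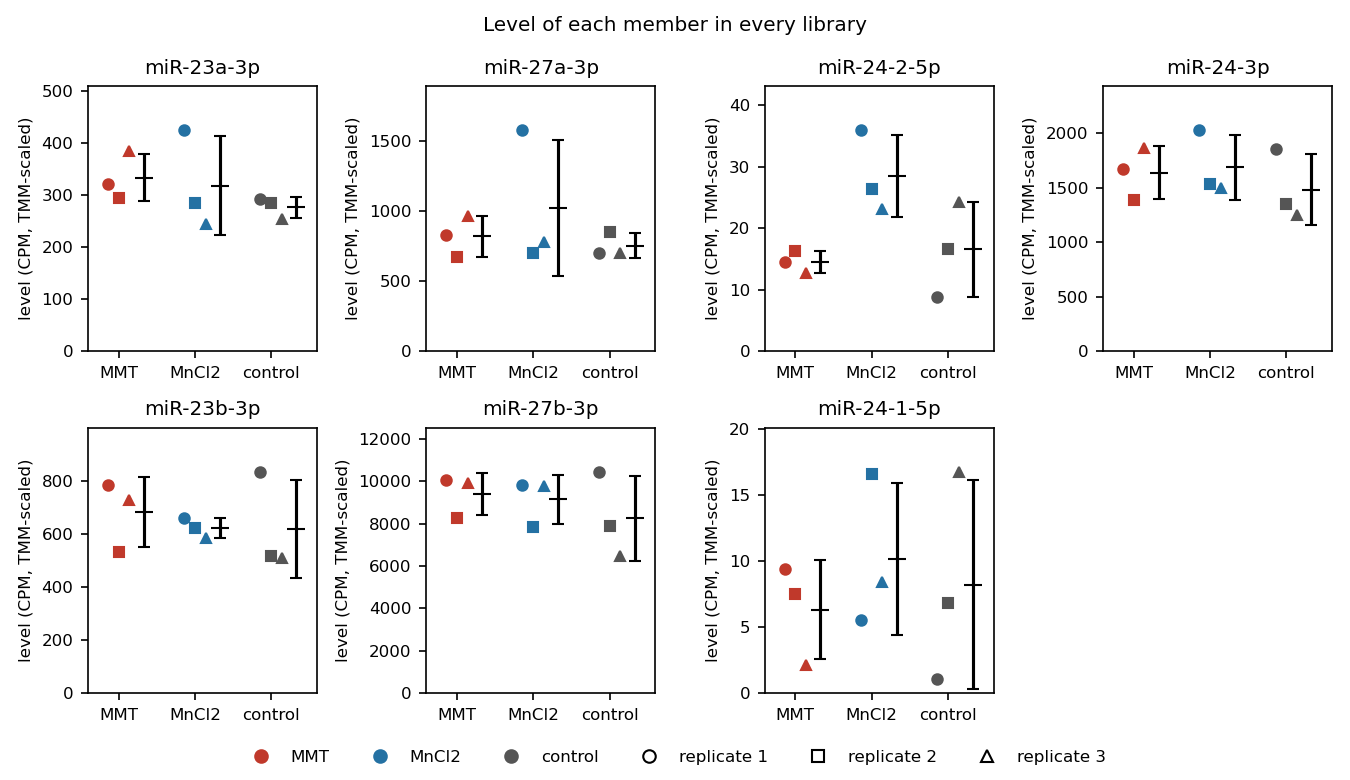
Levels of the 7 members in CPM scaled by TMM, on linear axes from 0, with 1 panel per member. Points are single libraries in the order MMT, MnCl2 and control, and black bars give mean ± SD of 3 libraries; MnCl2 library 1 stands out at 1577 CPM in the miR-27a-3p panel, and control libraries span the widest range of miR-27b-3p, 6456 to 10418 CPM.

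The passenger strands of miR-24 were scarce. MiR-24-2-5p, rank 403, had 17, 13 and 18 counts in MMT libraries, 26, 27 and 22 in MnCl2 libraries and 16, 17 and 16 in control libraries. In CPM this came to 14.5, 16.3 and 12.8 in MMT libraries, 35.9, 26.4 and 23.1 in MnCl2 libraries and 8.9, 16.6 and 24.3 in control libraries. Every MMT library was below every MnCl2 library, and control library 3 overlapped the MnCl2 group.

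MiR-24-1-5p, rank 584, had 11, 6 and 3 counts in MMT libraries, 4, 17 and 8 in MnCl2 libraries and 2, 7 and 11 in control libraries. It was the only member that did not pass the low-count filter. MiR-23a-3p lay 15.6-fold above miR-24-2-5p, and miR-24-2-5p was above miR-24-1-5p in 9 of 9 libraries, 2.41-fold on average. Both miR-24-5p strands together made up 1.41%, 1.69% and 0.793% of miR-24 counts in MMT libraries, 2.003%, 2.73% and 2.05% in MnCl2 libraries and 0.537%, 1.71% and 3.17% in control libraries.

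The passenger strands of the other 4 hairpins were in the same range. MiR-27b-5p averaged 38.5 ± 23.5 CPM in MMT libraries, 41.1 ± 5.04 in MnCl2 libraries and 39.4 ± 23.2 in control libraries (SD, n = 3 each). MiR-23b-5p averaged 23.004 ± 22.8, 21.5 ± 10.2 and 16.3 ± 11.8 CPM in MMT, MnCl2 and control libraries, and miR-23a-5p 11.9 ± 5.09, 14.4 ± 6.20 and 13.0 ± 8.72 CPM in the same order. MiR-27a-5p had 4, 10 and 5 counts in MMT libraries, 12, 20 and 13 in MnCl2 libraries and 1, 10 and 5 in control libraries. In CPM it ran from 3.41 to 12.6 in MMT libraries, from 13.6 to 19.6 in MnCl2 libraries and from 0.556 to 9.78 in control libraries. With this TMM scaling the MnCl2 group overlapped neither of the others. With total-count scaling it overlapped the MMT group, at 13.7 CPM in MMT library 2 and 13.1 in MnCl2 library 3. Of the 1113 entries tested, 4.76% were higher without overlap in MnCl2 against control, and 4.76% were lower without overlap in MMT against MnCl2. The log2 fold change of MnCl2 over control was 1.57 ± 0.86 (SE), with an adjusted p of 0.843 by edgeR's quasi-likelihood test. In any library the 5p strand held at most 8.41% of the counts of both arms for miR-23b, 7.73% for miR-23a, 2.71% for miR-27a and 0.911% for miR-27b.

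Does dosing with MMT move these miRNAs? No member passed in MMT against control. edgeR's quasi-likelihood test, fitted to all 9 libraries and adjusted by Benjamini-Hochberg over 1113 entries, called 0 of the 6 members tested, against 0% of all entries at an adjusted p under 0.05. At an unadjusted p under 0.05 it called 0 members, against 0.18% of entries higher and 1.98% lower, and DESeq2 called 0 at either level. The 6 log2 fold changes had a median of 0.14, beside 0.01 for all entries and 0.04 for the 615 miRNAs. MiR-23a-3p had the largest, 0.27 ± 0.20 (SE, 95% interval -0.17 to 0.70, adjusted p = 1), and was the 1 member whose groups did not overlap, where 1.8% of entries lay higher without overlap and 2.79% lower. MiR-27b-3p had 0.19 ± 0.20 and miR-24-3p 0.14 ± 0.19. MiR-23b-3p had 0.14 ± 0.21 and miR-27a-3p 0.12 ± 0.27, and the 95% intervals of the 5 guides together reached from -0.47 to 0.72. MiR-24-2-5p had -0.15 ± 0.46.

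Dosing with MnCl2, the other form of manganese, likewise moved no member past the threshold. edgeR called 0 of 6 members in MnCl2 against control, against 0% of all entries, and at an unadjusted p under 0.05 again 0, against 1.44% of entries higher and 3.14% lower; DESeq2 called 0 at either level. No member's groups were without overlap, against 4.76% of entries higher and 4.94% lower. The median log2 fold change was 0.19, beside 0.06 for all entries and 0.23 for miRNAs, of which 77.4% had a positive value. With miRNAs alone in the fit, the median of the miRNAs was -0.05 and that of the members -0.10, so the sign of the members' median turned with the scaling; in MMT against control the same setting gave -0.10 for miRNAs and -0.00 for members. MiR-24-2-5p had the largest value, 0.81 ± 0.46 (95% interval -0.19 to 1.82, adjusted p = 0.843), followed by miR-27a-3p at 0.43 ± 0.27 (-0.17 to 1.03, adjusted p = 0.843). The remaining guides lay at 0.19 ± 0.20 for miR-23a-3p, 0.18 ± 0.19 for miR-24-3p, 0.15 ± 0.20 for miR-27b-3p and -0.00 ± 0.21 for miR-23b-3p. Both comparisons share the 3 control libraries.

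MnCl2 library 1 decided part of these values. Without it, miR-27a-3p in MnCl2 against control was at -0.03 and miR-23a-3p at -0.07, while miR-24-2-5p kept 0.61. That library also held the most miR-143-3p, a miRNA of vascular smooth muscle, which stood at 8675, 7235 and 8245 CPM in MMT libraries, 17934, 7239 and 7929 CPM in MnCl2 libraries 1 to 3 and 9215, 7364 and 6624 CPM in control libraries. The 7 listed markers of endothelium and smooth muscle summed to 17666 to 20604 CPM in MMT libraries, 32549, 17612 and 19326 CPM in MnCl2 libraries and 15916 to 22386 CPM in control libraries, with no marker at 0 in any group. Their part in the miR-27a-3p and miR-23a-3p values was not tested. For miR-126a-3p, which is made in endothelium, the libraries were closer together, at 7598, 6736 and 7678 CPM in MMT, 8637, 6362 and 7147 CPM in MnCl2 and 8353, 6088 and 5922 CPM in control libraries.

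Set against each other, the manganese compounds gave no difference in any member that passed edgeR's test. It called 0 of 6 members in MMT against MnCl2, against 0% of all entries, and 0 at an unadjusted p under 0.05, against 1.35% of entries higher and 0.629% lower; DESeq2 called 0 at either level. Doses and vehicles were not matched, at 4 mg/kg MMT in oil and 200 mg/kg MnCl2 in saline. MiR-24-2-5p was the 1 member whose groups did not overlap, with a log2 fold change of MMT over MnCl2 of -0.97 ± 0.45 (95% interval -1.97 to 0.04, unadjusted p = 0.0572, adjusted p = 0.981), where 4.76% of entries lay lower without overlap and 4.31% higher. In a fit that included the total as covariate, miR-24-2-5p had -0.70 (edgeR adjusted p = 0.933). MiR-27a-3p had -0.31 ± 0.27, and -0.31 became 0.16 without MnCl2 library 1. MiR-23b-3p had 0.14 ± 0.21, miR-23a-3p 0.07 ± 0.20, miR-27b-3p 0.04 ± 0.20 and miR-24-3p -0.04 ± 0.19. The 95% intervals of the 5 guides reached from -0.91 to 0.59. MiR-24-1-5p, taken from a fit without the filter, had 95% intervals that spanned 0 in each comparison.

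**Figure D2:**
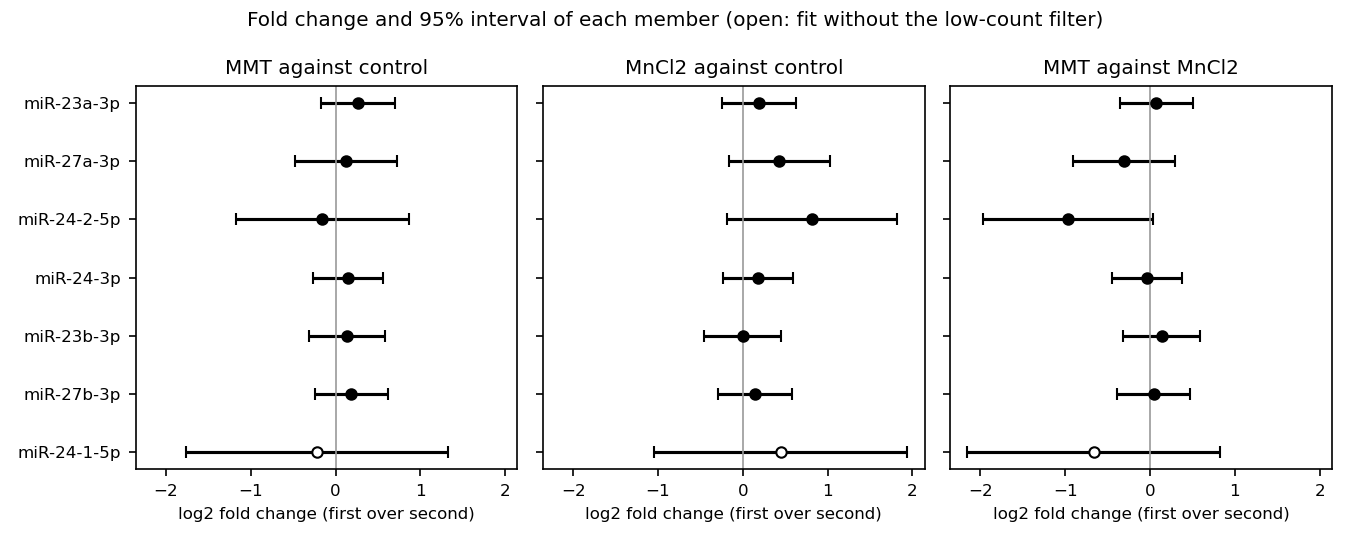
Log2 fold change of each member with its 95% interval from edgeR, in panels for MMT against control, MnCl2 against control and MMT against MnCl2; each value is the first group over the second, and open points come from the fit without the low-count filter. All 21 intervals include 0, and that of miR-24-2-5p in MMT against MnCl2, -1.97 to 0.04, comes nearest to leaving it out.

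Because reads may be placed with either form, the a and b forms were also fitted as sums. MiR-23a-3p plus miR-23b-3p gave a log2 fold change of 0.18 in MMT against control, 0.06 in MnCl2 against control and 0.12 in MMT against MnCl2. MiR-27a-3p plus miR-27b-3p gave 0.18, 0.17 and 0.01 in the same order. None passed the threshold.

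The b form was the more abundant in both families, but by different margins. MiR-23a-3p made up 33.03% ± 3.52 of miR-23-3p counts in MMT libraries, 33.4% ± 5.13 in MnCl2 libraries and 31.6% ± 5.002 in control libraries (SD, n = 3 each). MiR-27a-3p made up 8.01% ± 0.739 of miR-27-3p counts in MMT libraries, 9.83% ± 3.52 in MnCl2 libraries and 8.65% ± 2.003 in control libraries. MnCl2 library 1 again stood apart, with 13.9% miR-27a-3p (95% Wilson interval 13.1% to 14.6%), against 8.22% and 7.40% in the other MnCl2 libraries. Control library 1 was at the other end, with 6.33% (6.004% to 6.68%). MiR-24-2-5p took between 59.3% and 88.9% of miR-24-5p counts, with intervals as wide as 46.0% to 84.6% in MMT library 2, where 19 counts were available.

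In a ratio of 2 members within a library the scaling factor cancels, though the ratio may still vary with the total. Of 7 ratios tested in 3 comparisons, 3 of 21 tests reached the smallest p that 3 against 3 libraries allow, 0.1 by an exact two-sided permutation test over 20 arrangements, and adjusted p-values over all 21 ran from 0.7 to 0.9. MiR-24-3p over the sum of both miR-23 guides was 1.51, 1.67 and 1.68 in MMT libraries, 1.87, 1.69 and 1.82 in MnCl2 libraries and 1.65, 1.68 and 1.64 in control libraries. The MnCl2 libraries lay above all others, though 1.69 stood just over 1.68. The mean log2 difference was 0.11 in MnCl2 against control and -0.15 in MMT against MnCl2 (exact permutation p = 0.1 and adjusted p = 0.7 in each).

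The ratio of miR-24-5p strands to miR-24-3p was the other one to reach that smallest p. It was 0.0145, 0.0177 and 0.00818 in MMT libraries and 0.0208, 0.0284 and 0.0213 in MnCl2 libraries, with a mean log2 difference of -0.86 (exact permutation p = 0.1, adjusted p = 0.7). Control libraries, at 0.00555 to 0.0334, spanned both groups. Over the 9 libraries this log2 ratio correlated with the log2 total, with Pearson's r = -0.91 (exact permutation p = 0.00092, adjusted over 7 ratios 0.00644) and Spearman's rho = -0.78 (exact p = 0.0172, adjusted 0.121). In deviations from group means r was -0.92 (exact permutation p = 0.0509, adjusted 0.348), and without control libraries 1 and 3 it was -0.75 (exact p = 0.0548, adjusted 0.383). The other 6 ratios had r between -0.61 and 0.55, and none passed. Total counts were 730044 to 1543987 in MMT libraries and 753383 to 989556 in MnCl2 libraries, and their part in the difference was not tested. Among cluster mates, miR-27b-3p over miR-23b-3p ran from 12.5 to 16.7 over the 9 libraries and miR-27a-3p over miR-23a-3p from 2.27 to 3.71, with all groups overlapping.

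**Figure D3:**
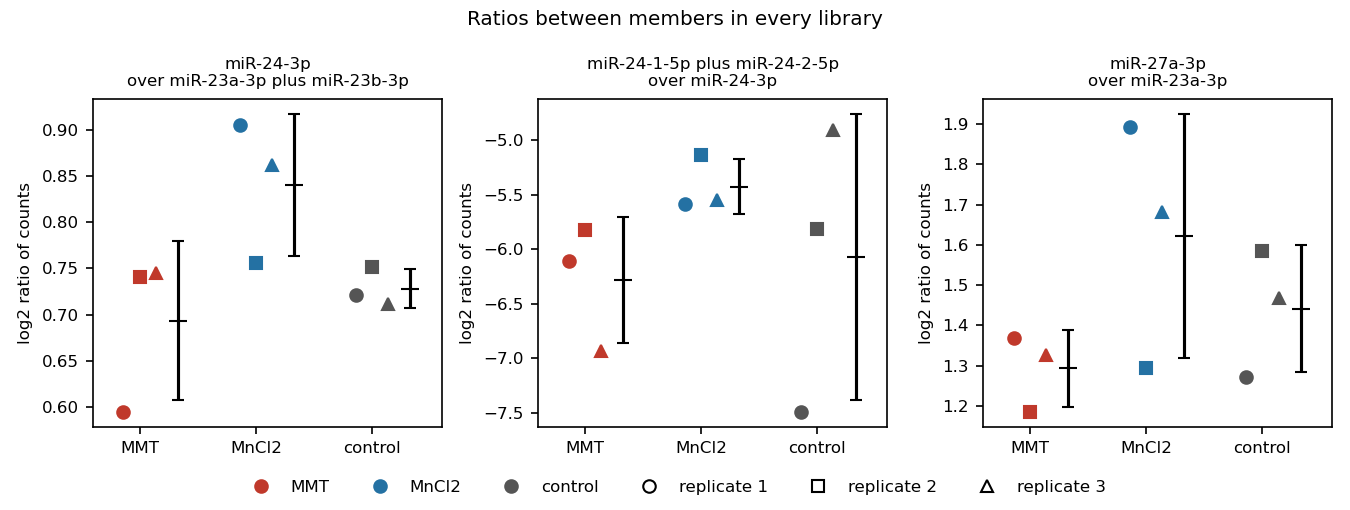
Log2 ratios of counts (0.5 added to each term) between members in every library, for miR-24-3p over both miR-23 guides, both miR-24-5p strands over miR-24-3p, and miR-27a-3p over miR-23a-3p. Points are libraries in the order MMT, MnCl2 and control, and black bars are mean ± SD of 3; the MMT points lie below the MnCl2 points in the first and second panels, and the control points of the second panel are the most spread.

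Guides of one cluster had higher correlations with each other over the libraries than near-identical guides of different clusters, a description with no test. Over the 9 libraries, whose levels share depth and scaling, Pearson's r of log2 CPM was 0.82 between miR-23a-3p and miR-27a-3p and 0.80 between miR-23b-3p and miR-27b-3p. It was 0.47 between miR-23a-3p and miR-23b-3p and 0.39 between miR-27a-3p and miR-27b-3p. Across clusters and families it was 0.48 for miR-23a-3p with miR-27b-3p and 0.19 for miR-23b-3p with miR-27a-3p. MiR-24-3p, which both clusters make, had 0.79 with miR-23a-3p, 0.82 with miR-23b-3p, 0.65 with miR-27a-3p and 0.83 with miR-27b-3p.

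Taken as deviations from the group means, the same-cluster values were 0.89 for the a pair and 0.81 for the b pair, and those of the near-identical pairs 0.41 for miR-23 and 0.35 for miR-27. MnCl2 library 1 carried part of the a pair: without it r was 0.62, and with any other single library left out it was 0.81 to 0.88. The b pair ranged from 0.77 to 0.88 with any 1 library left out, miR-23a-3p with miR-23b-3p from 0.36 to 0.63, and miR-27a-3p with miR-27b-3p from 0.32 to 0.54. Without MnCl2 library 1, miR-23a-3p with miR-23b-3p stood at 0.56, near the 0.62 of the a pair. Across clusters and families, miR-23a-3p with miR-27b-3p ranged from 0.33 to 0.69 and miR-23b-3p with miR-27a-3p from 0.098 to 0.41. The 0.69 came without MnCl2 library 3, where the a pair stood at 0.88.

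**Figure D4:**
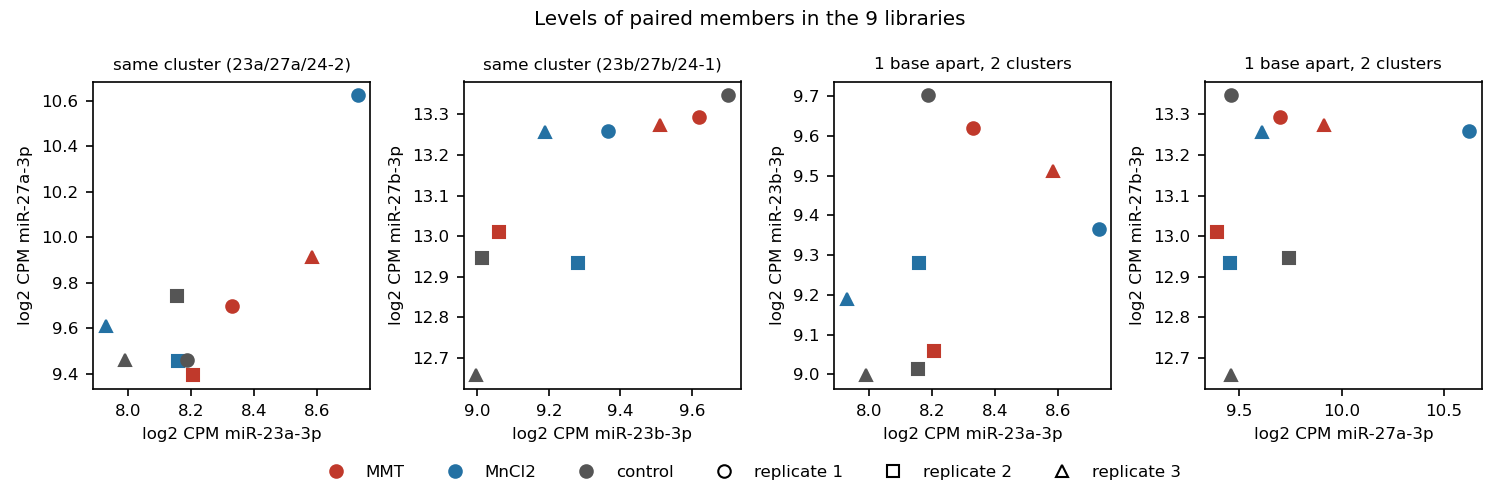
Log2 CPM of paired guides in the 9 libraries: the same-cluster pairs miR-23a-3p with miR-27a-3p and miR-23b-3p with miR-27b-3p, then the pairs that differ at 1 base. Colours give the group and symbols the replicate number; Pearson's r is 0.82, 0.80, 0.47 and 0.39 from left to right, and MnCl2 library 1 lies at the top right of the first panel.

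Summed over a and b forms, the 3 families moved together over the libraries, with r of 0.93 between miR-23 and miR-24, 0.87 between miR-24 and miR-27 and 0.81 between miR-23 and miR-27. Among 195 other miRNAs of at least 100 CPM, the nearest to the miR-23 sum were miR-34a-5p (0.92), miR-126a-3p (0.87) and miR-26b-5p (0.85). Nearest to miR-24-3p were miR-543-3p (0.96), miR-126a-3p (0.94) and miR-199a-3p (0.92). Nearest to the miR-27 sum were miR-21-5p (0.98), miR-322-5p (0.95) and miR-26b-5p (0.94). These values stand beside a median of 0.56, 0.59 and 0.66 over all 195 for the miR-23, miR-24 and miR-27 sums, so high values were common in these libraries.

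With TMM scaling, 4 of the 7 members correlated with the total count of the library by Pearson's r, and with total-count scaling 2 did. By Spearman's rho with TMM scaling, none passed an adjusted p of 0.05. No share over all entries stands beside these counts, so they are not read as particular to the members. Over the 9 libraries, log2 level and log2 total correlated in miR-23b-3p with Pearson's r = 0.81 (exact permutation p = 0.00829, adjusted over 7 members 0.0239) and Spearman's rho = 0.75 (exact p = 0.0255, adjusted 0.0595). MiR-27b-3p had r = 0.72 (exact p = 0.0265, adjusted 0.0465) and rho = 0.77 (exact p = 0.0214, adjusted 0.0595). The passenger strands ran the other way, with r = -0.81 (exact p = 0.00904, adjusted 0.0239) and rho = -0.62 (exact p = 0.0857, adjusted 0.15) for miR-24-1-5p. MiR-24-2-5p had r = -0.80 (exact p = 0.0103, adjusted 0.0239) and rho = -0.75 (exact p = 0.0255, adjusted 0.0595). MiR-24-3p had r = 0.57 (exact p = 0.108, adjusted 0.152) and rho = 0.50 (exact p = 0.178, adjusted 0.249).

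For the a guides no relation to the total passed. MiR-23a-3p had r = 0.18 (exact p = 0.642, adjusted 0.749) and rho = 0.22 (exact p = 0.581, adjusted 0.581), and miR-27a-3p r = -0.08 (exact p = 0.838, adjusted 0.838) and rho = 0.40 (exact p = 0.291, adjusted 0.34). For the 4 members that passed, r was also taken without control libraries 1 and 3, which had the highest and the lowest total. Leaving them out narrows the range of totals, so a weaker r cannot show that the relation rested on them. Without them r kept its sign over 7 libraries but none passed, at 0.61 for miR-23b-3p (exact p = 0.149), 0.42 for miR-27b-3p (exact p = 0.332), -0.49 for miR-24-1-5p (exact p = 0.249) and -0.66 for miR-24-2-5p (exact p = 0.106), and no adjusted value was under 0.521. With total-count scaling, r was 0.61 for miR-23b-3p (adjusted exact permutation p = 0.193) and 0.51 for miR-27b-3p (adjusted 0.277), while miR-24-1-5p at -0.82 and miR-24-2-5p at -0.86 still passed. In deviations from group means over the 9 libraries, permuted within groups in 216 arrangements, r was -0.93 for miR-24-2-5p. Its exact p of 0.00463 is the smallest these arrangements can give, and its adjusted p was 0.0324. The same measure was 0.84 for miR-23b-3p, 0.84 for miR-27b-3p, -0.79 for miR-24-1-5p and 0.69 for miR-24-3p, each with an adjusted exact p of 0.169. The highest and the lowest total were both in the control group.

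**Figure D5:**
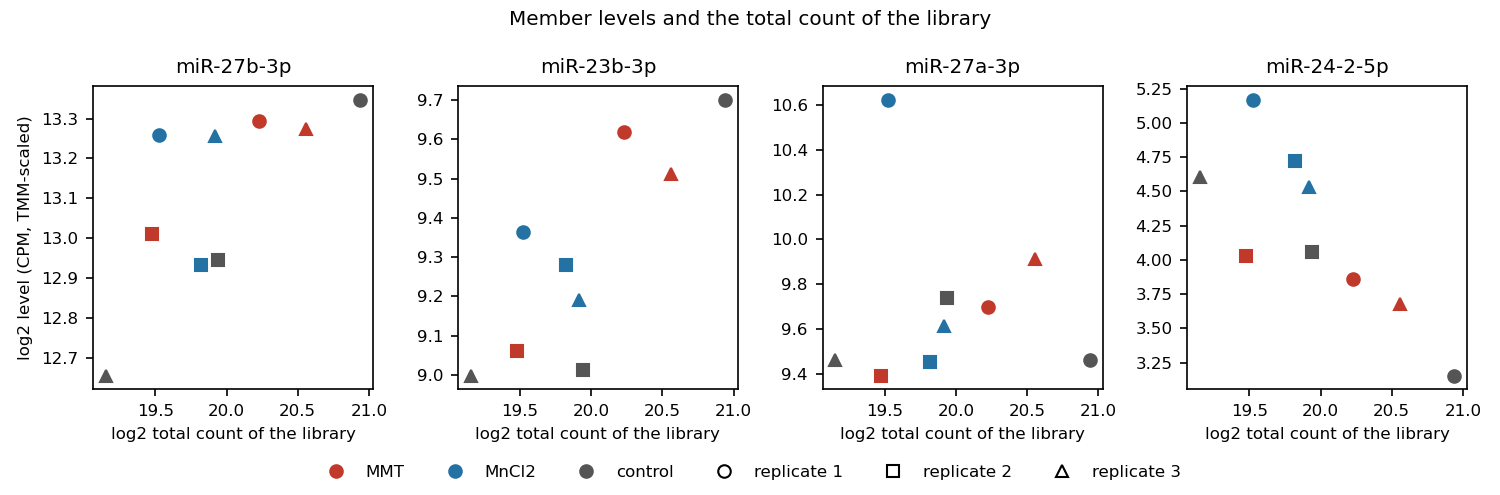
Log2 CPM against log2 total count of the library for miR-27b-3p, miR-23b-3p, miR-27a-3p and miR-24-2-5p, 1 point per library with colours for the group. Pearson's r is 0.72, 0.81, -0.08 and -0.80 from left to right, and the leftmost and rightmost points of each panel are control libraries 3 and 1.

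Lists of miRNAs known from particular cell types or conditions served as further background, and edgeR called 0 of their members in every comparison. The 7 miRNAs of the endothelium and smooth muscle list had a median log2 fold change of 0.07 in MMT against control, 0.51 in MnCl2 against control and -0.45 in MMT against MnCl2. All 615 tested miRNAs, beside which each list is to be read, had medians of 0.04, 0.23 and -0.19 in the same order. The 7 hypoxia-induced miRNAs, led by miR-26a-5p and miR-26b-5p, had medians of 0.12, 0.05 and 0.06 in the same order of comparisons. The 4 other arms of the cluster hairpins had 0.07, 0.36 and -0.22. The medians were 0.30, 0.31 and -0.05 for the 4 oligodendrocyte miRNAs, led by miR-338-3p and miR-219a-5p, and 0.14, 0.42 and -0.09 for the 3 astrocyte miRNAs tested of 4. For the 5 neuronal miRNAs they were 0.09, 0.04 and 0.06, and for the 4 of microglia and immune cells 0.23, 0.48 and -0.16.

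The remaining lists hold markers of blood and neighbouring tissue. Medians in the same order were 0.16, 0.87 and -0.70 for the 2 erythrocyte miRNAs tested of 3, 0.04, 0.43 and -0.38 for 3 choroid plexus miRNAs and 0.38, 1.33 and -0.95 for 3 muscle miRNAs. The erythrocyte list summed to 46.9 to 66.1 CPM in MMT libraries, 127, 54.8 and 65.1 CPM in MnCl2 libraries 1 to 3 and 46.2 to 82.1 CPM in control libraries. The muscle list summed to 65.4 to 163 CPM in MMT libraries and to 98.2, 210 and 121 CPM in MnCl2 libraries. In control libraries its sum was 76.8 to 125 CPM, so the groups overlapped. Its miR-1-3p was scarce, at 11.9, 12.6 and 10.7 CPM in MMT libraries and 15.2, 61.6 and 11.5 CPM in MnCl2 libraries. In control libraries it stood at 5.56 to 9.78 CPM. MiR-204-5p of the choroid plexus varied within every group, from 201 to 1922 CPM in MMT, from 224 to 1146 CPM in MnCl2 and from 348 to 1031 CPM in control libraries. Their part in the members' values was not tested.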

How the data were processed

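The authors deposited whole-number counts per small RNA for 9 rat striatal libraries, as the unequal totals show. Per the labels' protocols, RNA of 15 to 45 nucleotides was taken from a gel and adapters came from the QIAseq miRNA kit. Trimmomatic and the rn6 build are named in the submitters' processing notes. How reads were aligned, placed and collapsed by molecular identifier, and whether strand was used, is not given in the sources used, so deposited counts may include PCR copies. RefSeq sequences and coordinates are of GRCr8. No rn6 coordinates are given.

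Groups came from titles and treatment labels. The members, lists, ratios and tests were chosen with earlier results of these data known. All 9 libraries were fitted in edgeR 4.0.16 (R 4.3.3, limma 3.58.1) with TMM scaling, filterByExpr by group and a robust two-sided quasi-likelihood test, with Benjamini-Hochberg adjustment over 1113 entries at 0.05. The 646 entries left out held 0.0854% of counts, and the biological coefficient of variation was 0.279. Log2 CPM used a prior count of 2. Ratios used a pseudocount of 0.5. Scripts were tested on simulated data. Totals of 583045 to 2012769 limit precision for the miR-24-5p strands.

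Named entries were all 7 members, other arms of their hairpins, antisense entries over at least 16 bases, the 2 most abundant of each list and the 3 miRNAs nearest each family. Not every list member is named. Alternatives were total-count or RLE scaling, DESeq2 1.42.0, no or stricter filtering (10 CPM in 3 libraries), compared groups alone, miRNAs alone, no robust weights, paralogues summed, the total as covariate, the replicate block and each library left out. Likeness with a library left out, and relations to the total within groups and for ratios, were added after the data were seen. Python 3.11.15 was used with scipy 1.17.1, numpy 2.4.6, matplotlib 3.10.9 and pandas 2.3.3.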

Additional observations from a re-analysis of the deposited data

How the results depend on the processing

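edgeR or DESeq2 called 0 members in every comparison under every alternative run, and the lowest adjusted p of any member was 0.916 in MMT against control, 0.341 in MnCl2 against control and 0.569 in MMT against MnCl2. Over all entries, the fit with no low-count filter called 1 entry in MnCl2 against control, where the filtered fit called 0. Under total-count scaling, 2 members correlated with the library total by Pearson's r, where 4 did with TMM. In deviations from group means, chosen after seeing the data, 1 did, and r for miR-27a-3p was 0.016. No share over all entries stands beside these counts of members, so they are not read as particular to the members. With total-count scaling r was -0.23 for miR-23a-3p, 0.61 for miR-23b-3p and 0.51 for miR-27b-3p. With miRNAs alone r was 0.0088 for miR-27a-3p and 0.82 for miR-24-3p.

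Signs of several log2 fold changes near 0 turned. With miRNAs alone, MMT against control gave -0.018 for miR-27a-3p, -0.0095 for miR-23b-3p and -0.00015 for miR-24-3p; MnCl2 against control gave -0.092 for miR-23a-3p, -0.14 for miR-27b-3p and -0.10 for miR-24-3p. MiR-23b-3p in MnCl2 against control was 0.026 with total-count scaling, 0.011 with the compared groups alone and 0.14 with the total as covariate. MiR-24-3p in MMT against MnCl2 was 0.012 with DESeq2, 0.011 with RLE, 0.036 without the filter, 0.028 with the compared groups alone and 0.10 with miRNAs alone. With the total as covariate, MMT against MnCl2 gave -0.014 for miR-23b-3p and -0.077 for miR-27b-3p. The cause was not tested.

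The labels do not say whether the replicate numbers pair the libraries. In deviations from group means, same-numbered MMT and control libraries correlated at 0.32, 0.33 and -0.67. MnCl2 and control libraries correlated at -0.02, 0.06 and -0.37, and MMT and MnCl2 libraries at -0.16, 0.49 and 0.26. Differently numbered libraries ranged from -0.77 to 0.75, from -0.39 to 0.44 and from -0.48 to 0.29 in the same order of groups. These values cannot decide whether libraries share a litter or batch, because such sharing need not show in them. With the replicate block 0 entries were called in each comparison, and miR-23b-3p in MnCl2 against control was 0.038.

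Leaving out each library in turn turned the sign of 11 log2 fold changes and 14 ratio differences, all of which had not passed. In MMT against control the log2 fold change ranged from -0.0023 to 0.42 for miR-23b-3p, from -0.48 to 0.22 for miR-24-2-5p and from -0.0099 to 0.27 for miR-27a-3p. In MnCl2 against control the log2 fold change ranged from -0.20 to 0.28 for miR-23b-3p, from -0.073 to 0.35 for miR-27b-3p, from -0.030 to 0.64 for miR-27a-3p and from -0.073 to 0.35 for miR-23a-3p. In MMT against MnCl2 the log2 fold change ranged from -0.14 to 0.15 for miR-24-3p, from -0.058 to 0.20 for miR-27b-3p, from -0.091 to 0.34 for miR-23a-3p and from -0.52 to 0.16 for miR-27a-3p. In MMT against control the difference in log2 ratio ranged from -0.091 to 0.24 for miR-23a-3p over miR-23b-3p, from -0.66 to 0.48 for miR-24-2-5p over miR-24-1-5p, from -0.32 to 0.021 for miR-27a-3p over miR-27b-3p, from -0.93 to 0.37 for miR-24-1-5p plus miR-24-2-5p over miR-24-3p, from -0.061 to 0.015 for miR-24-3p over miR-23a-3p plus miR-23b-3p and from -0.026 to 0.14 for miR-27b-3p over miR-23b-3p. In MnCl2 against control the difference in log2 ratio ranged from -0.073 to 0.25 for miR-23a-3p over miR-23b-3p, from -0.13 to 0.37 for miR-27a-3p over miR-27b-3p, from -0.067 to 1.23 for miR-24-1-5p plus miR-24-2-5p over miR-24-3p and from -0.46 to 0.67 for miR-24-2-5p over miR-24-1-5p. In MMT against MnCl2 the difference in log2 ratio ranged from -0.14 to 0.17 for miR-23a-3p over miR-23b-3p, from -0.71 to 0.33 for miR-24-2-5p over miR-24-1-5p, from -0.47 to 0.036 for miR-27a-3p over miR-27b-3p and from -0.18 to 0.024 for miR-27b-3p over miR-23b-3p. The other log2 fold changes and ratio differences of members kept their sign with each library left out. Low counts limit the miR-24-5p strands, and 3 libraries per group limit every comparison.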
